A study of Mus musculus with 3 samples.

Results

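The genes described here encode the subunits of the Polycomb repressive complexes and of the Lsd1, CoREST, histone deacetylase and NuRD complexes that repressors of the Snail type recruit. They were chosen by name from knowledge of these complexes, and each was read through its brightest probe set, the group of oligonucleotides on the array that reports 1 transcript. They number 33 of the 18193 genes that had a probe set of their own. The RNA was that of A2.snail cells, a mouse embryonic stem cell line carrying a doxycycline-inducible Snail gene, after 3 days of differentiation. All cells grew as embryoid bodies, floating aggregates seeded at 50000 cells/mL, in medium with 10% FCS and DKK1, a secreted inhibitor of Wnt signalling. The groups were Flk1- cells sorted from an untreated culture, and the Flk1- and the Flk1+ fractions sorted after doxycycline was added at 250 ng/mL on day 2. Flk1, encoded by Kdr, is a VEGF receptor of the mesoderm that gives blood and endothelium.

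Each group was 1 Affymetrix array, so the spread between cultures is unknown and p-values are not given. Differences are in log2(intensity + 9.53), where the offset is the 20th percentile of all intensities, and folds are on that scale. A gene was counted as measured when 1 or more arrays reached an intensity of 25.6, the 40th percentile of the deposited values; this held for 13969 genes and for all 33 described here. The array medians were 42.7, 42.4 and 44.6 in the order untreated Flk1-, Snail-induced Flk1- and Snail-induced Flk1+, the order used for values throughout. Kdr read 10.5, 9.73 and 404, which checks the sort, while the only Snai1 probe set read 29.1, 13.1 and 19.8 and does not show the induced gene. Neither cells given doxycycline but lacking the Snail transgene nor untreated Flk1+ cells were analysed here. Effects of Snail and of doxycycline therefore cannot be told apart. Setting induced Flk1+ against untreated Flk1- cells mixes both with the gate, and the gate difference without induction is unknown. In such sorted but bulk samples, fewer cells of a type and less RNA per cell also cannot be told apart.

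Polycomb proteins keep developmental genes silent. Polycomb repressive complex 2 (PRC2) methylates histone H3 at the H3K27 position through Ezh1 or Ezh2, with Eed and Suz12 as its scaffold. Polycomb repressive complex 1 (PRC1) pairs a RING ubiquitin ligase, Rnf2 or Ring1, with 1 of several Pcgf proteins; its canonical forms also carry a Cbx protein, which reads the PRC2 mark, and a Phc protein, which compacts chromatin. Snail silences E-cadherin and other epithelial genes through corepressors, among them the demethylase Lsd1 (Kdm1a) with CoREST (Rcor1), the deacetylases Hdac1 and Hdac2 on the Sin3a scaffold, and PRC2. Embryonic stem cells are known for high levels of many of these proteins and for genes that carry Polycomb marks until they differentiate.

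Snail and its relatives bind the E-box letters CAGGTG, which read CACCTG on the other strand. RefSeq promoter windows (GRCm38.p6), each 300 bases from 250 before to 50 after a start, were found for 30 of the 33 genes, all but Cbx2, Hdac1 and Pcgf1, and searched on both strands. The letters occurred in 3 of these 30 genes (10.0%), against 22.6% of the 27025 genes with a window and 20.2% of all 32851 windows. The 3 genes are Ezh1, Pcgf3 and Chd4. Of 12 epithelial genes that Snail is known to repress, 10 had a window and all 10 held the letters at 1 or more starts. They were chosen as known targets of Snail, so their share is a description and not an independent contrast. The 250 bases before the start are printed for the 3 genes and for Phc1, which lacks the letters and was the member with the largest negative difference in the comparison of Flk1+ with Flk1- cells. Capitals mark the E-box letters. Ezh1 lies at chr11:101226464-101226713 on the minus strand, Pcgf3 at chr5:108461009-108461258 and Chd4 at chr6:125095731-125095980 on the plus strand, and Phc1 at chr6:122340228-122340477 on the minus strand.
Ezh1: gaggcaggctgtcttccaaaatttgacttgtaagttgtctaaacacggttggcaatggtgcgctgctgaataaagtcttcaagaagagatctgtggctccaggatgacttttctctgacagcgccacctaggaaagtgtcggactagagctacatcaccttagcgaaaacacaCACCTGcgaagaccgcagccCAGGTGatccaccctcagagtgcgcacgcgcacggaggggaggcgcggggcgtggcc
Pcgf3: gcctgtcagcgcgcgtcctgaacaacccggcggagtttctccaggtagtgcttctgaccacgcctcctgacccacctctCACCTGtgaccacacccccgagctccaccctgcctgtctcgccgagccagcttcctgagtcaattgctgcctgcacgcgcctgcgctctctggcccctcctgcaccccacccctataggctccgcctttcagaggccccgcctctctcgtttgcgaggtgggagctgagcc
Chd4: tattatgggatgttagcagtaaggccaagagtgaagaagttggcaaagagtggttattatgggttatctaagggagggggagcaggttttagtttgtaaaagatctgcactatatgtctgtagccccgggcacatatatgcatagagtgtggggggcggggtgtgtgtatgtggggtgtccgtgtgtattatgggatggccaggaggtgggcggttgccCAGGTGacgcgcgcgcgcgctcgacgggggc
Phc1: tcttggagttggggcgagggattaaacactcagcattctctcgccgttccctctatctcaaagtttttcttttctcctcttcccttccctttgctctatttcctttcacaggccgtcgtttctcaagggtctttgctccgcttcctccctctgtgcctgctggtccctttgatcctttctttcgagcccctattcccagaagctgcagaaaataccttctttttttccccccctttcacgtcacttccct

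In Ezh1 the letters begin 77 and 57 bases before the start, in Pcgf3 171 bases and in Chd4 31 bases before it. A match says that these letters are present and nothing about binding. Taking for each gene the median count of CG dinucleotides over its windows, the 30 genes had a median of 26.5, from 9 to 50, against a median of 7 over all genes with a window.

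The first comparison asks how far genes of the repressor complexes differed between induced and untreated cells that were both Flk1-. Few of these genes did. Against untreated Flk1- cells, 1 of the 33 was at least 2-fold higher (Cbx8) and 0 were at least 2-fold lower, where 2.95% and 2.03% of all measured genes were. At 1.5-fold, 2 were higher (Bmi1 and Cbx8; background 8.48%) and 1 was lower (Pcgf5; background 7.82%), so 30 of 33 lay within 1.5-fold, where 16.3% of all measured genes were past it in either direction. The median log2 difference was 0.14 over the 33 genes and 0.04 over all measured genes, and 24 of the 33 lay above 0. With each array centred on the median of its measured genes, the median of the 33 was 0.05, with 20 above 0. That of all measured genes was then -0.06. Centring also turns the split of all genes past 2-fold from 59.3% higher to 44.1% higher. The size of both medians and the count above 0 thus depend on the array scaling. The median of the 33 lay above that of all measured genes with and without centring, a difference that was not tested. Over all probe sets the medians of the untreated and Snail-induced Flk1- arrays were close, at 42.7 and 42.4.

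**Figure D1:**
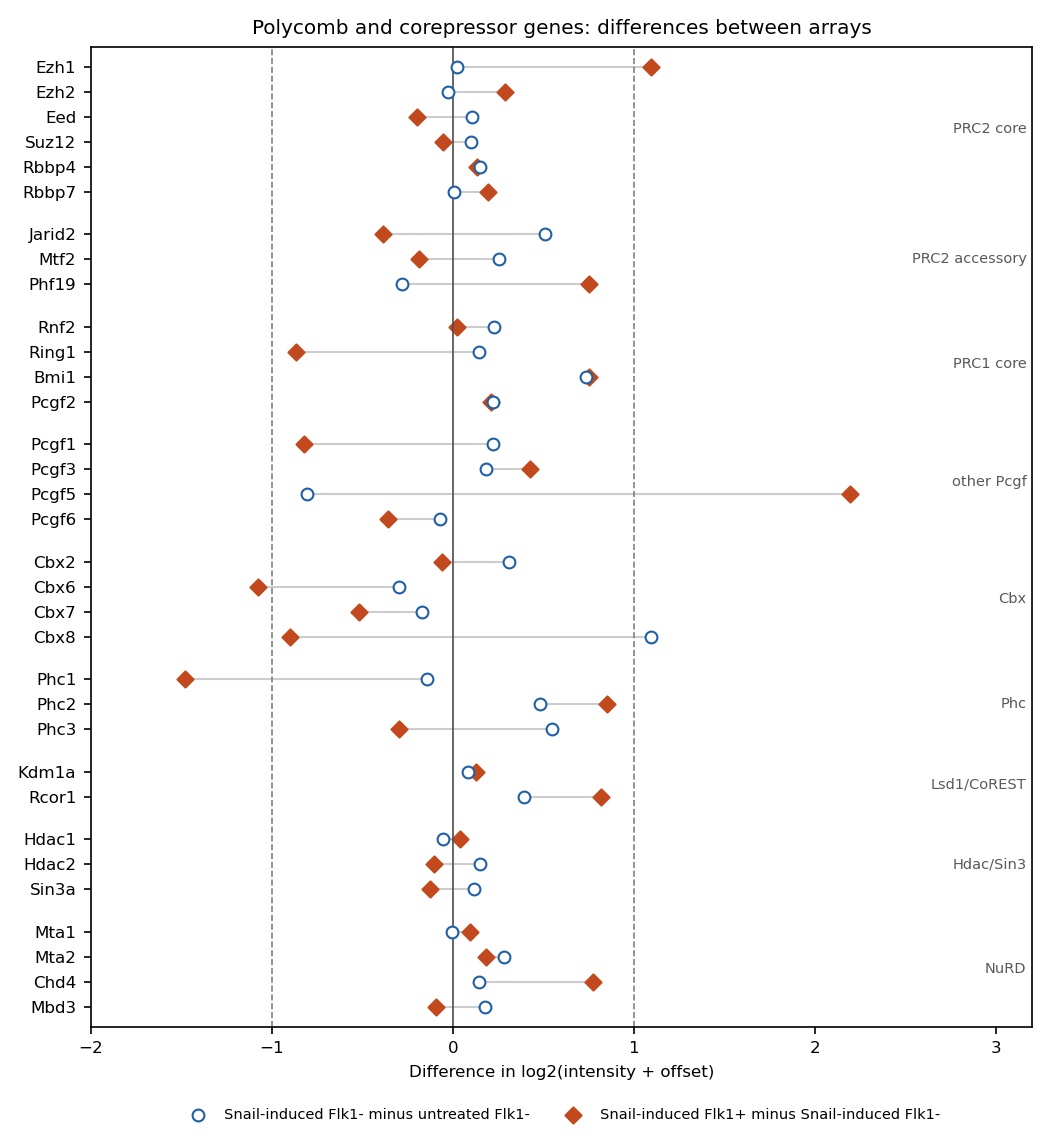
Difference in log2(intensity + offset) for each of the 33 genes, grouped by complex; open circles are Snail-induced Flk1- minus untreated Flk1-, filled diamonds Snail-induced Flk1+ minus Snail-induced Flk1-, and dashed lines mark 2-fold. Open circles lie close to 0 apart from Cbx8, Pcgf5 and Bmi1, while the diamonds of Pcgf5 and Ezh1 lie beyond 2-fold higher and those of Phc1 and Cbx6 beyond 2-fold lower; each pair shares the Snail-induced Flk1- array.

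The second comparison sets the Flk1+ fraction of the induced cells against their Flk1- fraction. Here PRC1 genes among the 33 differed in both directions, while most of the PRC2 and corepressor genes among them did not reach 1.5-fold. Pcgf5 and Ezh1 were at least 2-fold higher in Flk1+ cells and Phc1 and Cbx6 at least 2-fold lower, 2 of 33 each way, against 4.85% and 4.89% of measured genes. At 1.5-fold, 7 were higher (Ezh1, Phf19, Bmi1, Pcgf5, Phc2, Rcor1 and Chd4; background 12.5%) and 5 lower (Ring1, Pcgf1, Cbx6, Cbx8 and Phc1; background 11.7%). The median log2 difference over the 33 was 0.02, with 17 above 0 and 16 below. By complex, 8 of 15 PRC1 genes were past 1.5-fold, against 2 of 9 PRC2 genes, 2 of 9 corepressor genes and 24.1% of all measured genes. The 8 include Cbx8, which reached the limit on the Snail-induced Flk1- array alone, so 1.5-fold is not shown for it. Of 13 measured PRC1 genes outside the 33, 3 were past 1.5-fold, near the share of all measured genes. These counts are small and the difference between the complexes was not tested.

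The third comparison, Flk1+ cells against untreated Flk1- cells, is on the log2 scale the sum of the others and shares its arrays with them, so it adds no evidence of its own. In it 5 genes were at least 2-fold higher (Ezh1, Bmi1, Pcgf5, Phc2 and Rcor1; background 8.10%) and 2 at least 2-fold lower (Cbx6 and Phc1; background 6.41%). At 1.5-fold 7 were higher, with Pcgf3 and Chd4 joining these 5 (background 16.7%), and 5 were lower, with Cbx7, Ring1 and Pcgf1 joining Cbx6 and Phc1 (background 14.1%); in either direction the background was 30.8%. The median log2 difference was 0.20, against 0.01 over all measured genes.

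Among the catalytic subunits of PRC2, Ezh1 and Ezh2 differed in the size of their change. Ezh1, the methyltransferase known from resting and differentiated cells, read 393, 399 and 863, level in both Flk1- arrays and 2.13-fold higher in Flk1+ cells. Ezh2, the form known from dividing and embryonic cells, read 2366, 2322 and 2835, which is 1.22-fold higher in Flk1+ cells. The change of Ezh1 from Flk1- to Flk1+ cells exceeded that of Ezh2 by 0.81 on the log2 scale. Another Ezh1 probe set gave 109, 90.5 and 228, also highest in Flk1+ cells but lowest in the Snail-induced Flk1- array, and a dim one gave 26.4, 40.1 and 28.8, with the Snail-induced Flk1- array highest; using only probe sets without a suffix for several transcripts leaves that dim one and turns the Ezh1 difference to -0.37.

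The scaffold of PRC2 was level. Eed, which binds the methyl mark and activates the enzyme, read 2194, 2359 and 2051. Suz12, which holds the complex together, read 1228, 1315 and 1265. The histone-binding proteins Rbbp4 and Rbbp7, shared with the NuRD and Sin3 complexes, read 7234, 8036 and 8816, and 6887, 6915 and 7914. None of these genes was past 1.25-fold in any comparison by its brightest probe set. For Rbbp4 that probe set is of the kind that can read several transcripts, and its 3 other probe sets were higher in Flk1+ than in untreated cells by 0.53, 1.04 and 1.84 on the log2 scale, against 0.28, so the size of its difference is uncertain.

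The accessory subunits that guide PRC2 to DNA did not move as a group. Jarid2, which brings PRC2 to its targets in embryonic stem cells, read 2212, 3155 and 2413, highest in the Snail-induced Flk1- array at 1.42-fold over untreated cells. All 3 of its probe sets had that order of the Flk1- arrays, with differences between 0.51 and 0.56, and all were lower again in Flk1+ cells, by 0.39 to 0.65. Mtf2, a DNA-binding subunit, read 3779, 4514 and 3967 and kept within 1.2-fold. Phf19, which reads H3K36 methylation, was dim at 67.2, 53.7 and 97.0, 1.69-fold higher in Flk1+ than in Snail-induced Flk1- cells.

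In the core of PRC1, Bmi1 differed more than the ligase Rnf2. Bmi1, the Pcgf protein of canonical PRC1 needed for blood stem cell self-renewal, read 189, 321 and 548, higher at each step and 2.81-fold higher in Flk1+ than in untreated cells. Its second probe set gave 71.3, 134 and 208, with the same order and a log2 difference of 1.43 between the outer arrays, against 1.49. Pcgf2, the paralog that can take its place, read 240, 281 and 327, a 1.35-fold difference over the same span. The ligase Rnf2 read 2287, 2679 and 2725 and stayed within 1.2-fold. Ring1, the other ligase, read 75.9, 84.9 and 42.2, lowest in Flk1+ cells by 1.82-fold against Snail-induced Flk1- cells, from a single dim probe set.

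The remaining Pcgf genes define variant PRC1 complexes that do not need the PRC2 mark for their recruitment, and they went different ways. Pcgf5 read 361, 202 and 960, 1.75-fold lower in Snail-induced than in untreated Flk1- cells and 4.57-fold higher in Flk1+ than in Snail-induced Flk1- cells, the largest difference of any of the 33 genes. Its other probe sets gave 77.5, 60.4 and 280, and 50.9, 45.5 and 69.1, with the same order of arrays. The Snail-induced Flk1- value enters both differences, and against untreated cells the Flk1+ value was 2.62-fold higher. Pcgf1, the partner of the H2A ligase complex with Kdm2b and Bcor, read 127, 149 and 80.2, lowest in Flk1+ cells by 1.77-fold. Pcgf3 read 1087, 1234 and 1661, a 1.34-fold difference between the induced arrays. Pcgf6, which marks germline genes for silencing in embryonic stem cells, read 1784, 1695 and 1321, 1.28-fold lower in Flk1+ than in Snail-induced Flk1- cells.

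**Figure D2:**
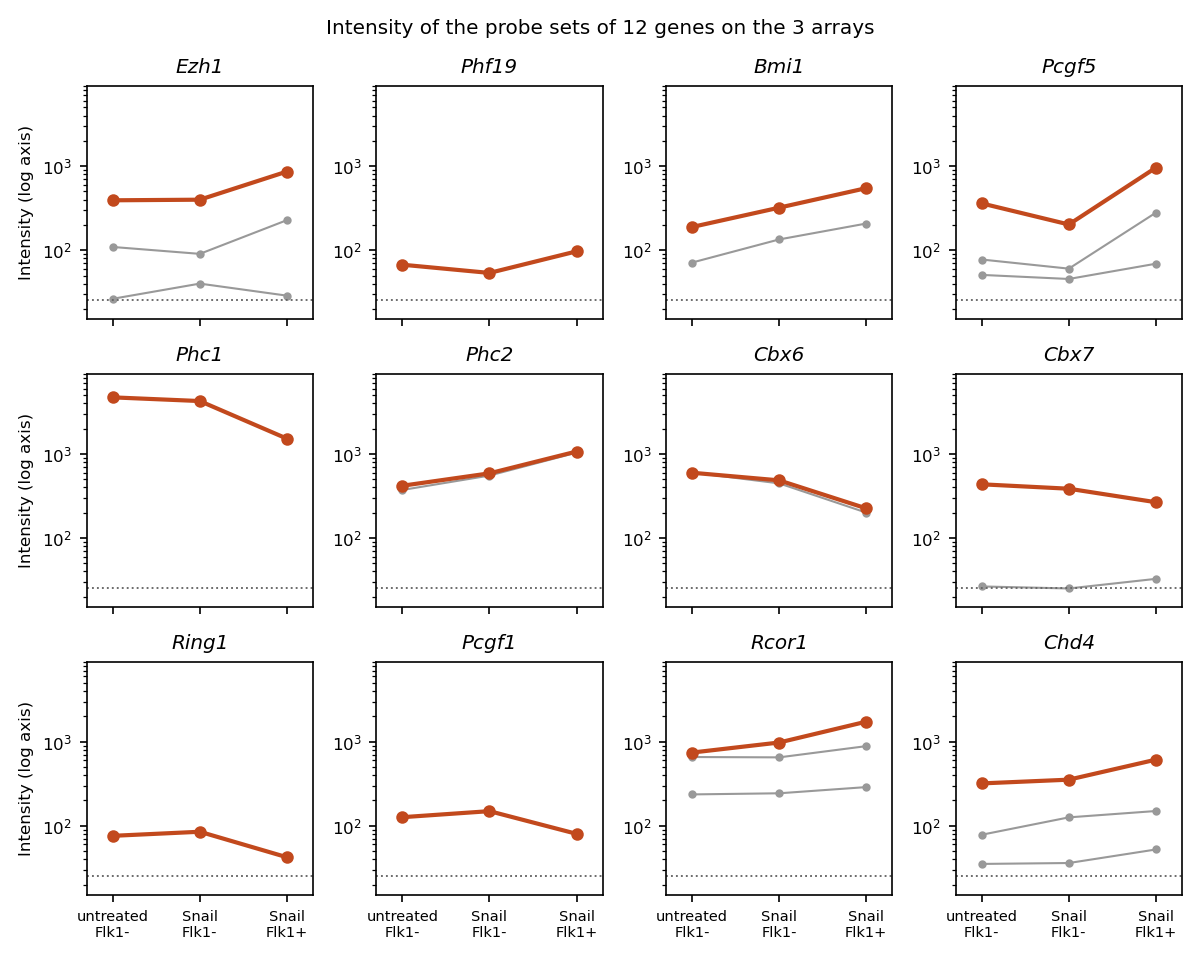
Intensity (log axis) of 12 genes on the 3 arrays; the thick line is the brightest probe set, grey lines are other measured probe sets of the gene, and the dotted line is the measurement limit of 25.6. Bmi1 and Phc2 climb over the arrays, Phc1 and Cbx6 descend, and Ezh1 and Pcgf5 are highest in Flk1+ cells by their bright probe sets.

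The Cbx proteins give canonical PRC1 its reader of H3K27 methylation, and each of the 4 measured was lower in Flk1+ than in Snail-induced Flk1- cells, by log2 differences from 0.06 to 1.08 in size. Cbx6 read 598, 485 and 225, 2.11-fold lower in Flk1+ cells, and its second probe set gave 602, 447 and 201. Cbx7, the main Cbx protein of embryonic stem cells, read 435, 386 and 267, 1.43-fold lower, while its dim second probe set read 26.5, 25.1 and 32.6. Cbx2, which compacts chromatin, read 1241, 1540 and 1475, a difference of 1.04-fold. Cbx8, a reader known from differentiating cells, read 11.7, 35.9 and 14.8, above the measurement limit on the Snail-induced Flk1- array alone. There it was at least 1.40-fold above each other array, so neither 1.5-fold nor 2-fold is shown for it. It was not measured by its second probe set, and its counts past 1.5-fold and 2-fold rest on this dim value.

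The Phc genes encode the polymerising subunits of canonical PRC1, and Phc1 and Phc2 differed in opposite directions. Phc1 read 4715, 4262 and 1523, alike in the Flk1- arrays and 2.79-fold lower in Flk1+ than in Snail-induced Flk1- cells. It has no other probe set to set beside this one. Phc2 read 419, 588 and 1069, higher in Flk1+ than in Snail-induced Flk1- cells by 0.85 on the log2 scale, and its second probe set gave 373, 553 and 1036. The difference of Phc2 from Flk1- to Flk1+ cells exceeded that of Phc1 by 2.33 on the log2 scale, and over the span from untreated cells by 2.96. Phc3 was dim at 59.0, 90.8 and 72.2 and within 1.5-fold.

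Among the corepressors that Snail recruits, Kdm1a and the deacetylases stayed within 1.2-fold by their brightest probe sets. Kdm1a, the Lsd1 demethylase that binds the SNAG domain of Snail, read 4030, 4277 and 4673, 1.06-fold and 1.09-fold apart at the 2 steps. Hdac1 read 5231, 5044 and 5190. Hdac2 read 3860, 4282 and 3986, and Sin3a 861, 935 and 856. All 3 were within 1.12-fold in every comparison by their brightest probe sets, although another, dim Hdac2 probe set read 37.7, 36.6 and 84.8. Rcor1, the CoREST scaffold that ties Kdm1a to the deacetylases, read 743, 979 and 1733, highest in Flk1+ cells at 2.31-fold over untreated cells. Its other probe sets gave 658, 652 and 886, and 236, 244 and 289, with log2 differences of 0.43 and 0.28 over that span against 1.21, so all 3 are higher in Flk1+ cells but by less than 2-fold in the other probe sets.

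The NuRD complex joins a chromatin remodeler to deacetylases. Its ATPase Chd4 read 319, 354 and 612, 1.71-fold higher in Flk1+ than in Snail-induced Flk1- cells, and its other probe sets gave 78.2, 126 and 150, and 35.2, 36.0 and 52.2. Of the Mta subunits, which dock the deacetylases, Mta1 read 1180, 1176 and 1256, and Mta2 read 452, 552 and 629, a 1.38-fold difference between the outer arrays. Mbd3, which defines the form of NuRD needed for embryonic stem cells to leave pluripotency, read 404, 457 and 428.

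Probe sets of one gene on the same array check the measurement of a transcript but not the cultures or the sort. Of the 33 genes, 22 had another measured probe set, 40 in all. These had the sign of the brightest probe set in 32 of 40 cases in the first comparison, 32 in the second and 29 in the third. For genes past 1.5-fold in the second comparison, 10 of 11 other probe sets had the same sign, the exception being the dim Ezh1 one. These cover 7 of the 12 genes, as Phf19, Ring1, Pcgf1, Cbx8 and Phc1 had no other measured probe set. The same sign did not always mean a like size. Chd4 gave 0.23 and 0.44 against 0.78, and Rcor1 0.44 and 0.24 against 0.82. Phc2 gave 0.89 against 0.85, and Cbx6 -1.12 against -1.08.

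**Figure D3:**
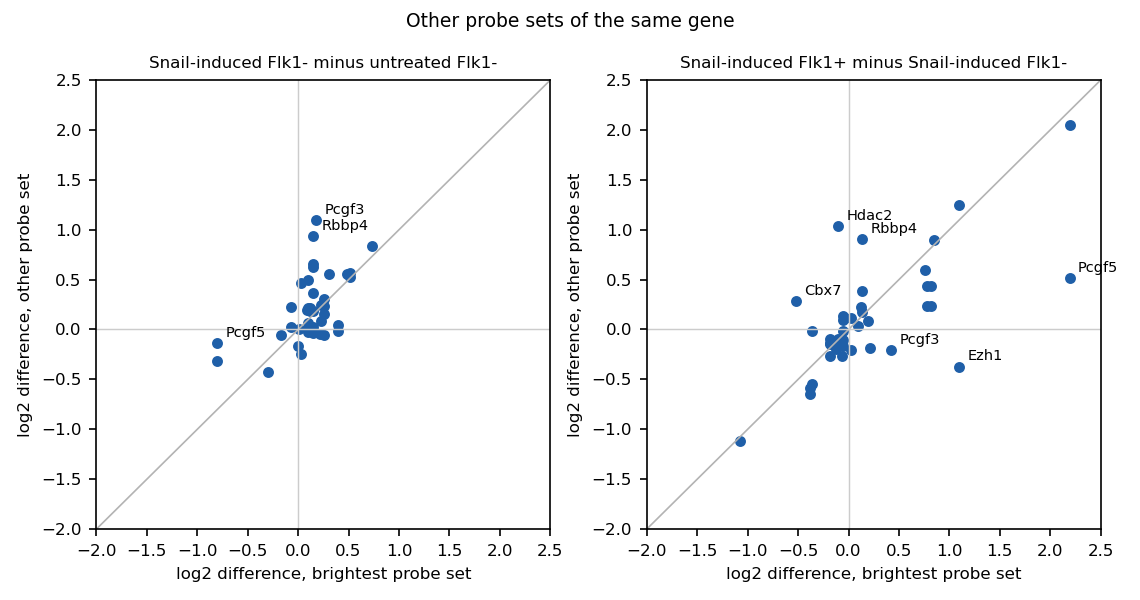
Log2 difference of each other measured probe set (y axis) against that of the brightest probe set of the same gene (x axis) for the 22 genes with more than 1, with the line of equality; genes are named where they differ by more than 0.6. Most points of the second comparison lie in the same quadrant as their partner, while Cbx7, Ezh1, Hdac2, Pcgf2, Pcgf3, Rnf2 and Suz12 have at least 1 point of the other sign.

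The differences between Flk1+ and Flk1- cells stood beside a change of cell type on the same arrays. Of 10 marker genes of the pluripotent epiblast, 8 were at least 1.5-fold lower in Flk1+ than in Snail-induced Flk1- cells and 0 higher. Over all measured genes the shares were 11.7% lower and 12.5% higher. The summed intensity of the 10 epiblast markers was 27243, 27605 and 14936. All 10 endothelial and hemangioblast markers were past 2-fold higher in Flk1+ cells on the offset scale, against 4.85% of all measured genes. Their sums were 661, 1032 and 8648. The list includes Kdr, the gene sorted on. Kdr, Flt1, Cdh5, Pecam1 and Emcn reached the limit on the Flk1+ array alone, so the count is a description. Against the limit, Pecam1 was at least 1.75-fold higher. Of 5 blood markers, Klf1 was under the limit on every array, and the 4 measured ones summed to 406, 239 and 398. Most of that came from Itga2b, at 295, 182 and 262. Of the feeder fibroblast markers, Col1a1 and S100a4 were under the limit on every array, and the 4 measured ones summed to 380, 549 and 281. Of 7 markers of primitive and visceral endoderm, Afp, Ttr and Apoa1 were under it too, and the 4 measured ones summed to 294, 407 and 1850. Within these, Sox17, a factor of endoderm that endothelium also expresses, read 68.3, 96.2 and 1466, and Gata6 read 22.1, 35.6 and 152. Gata4 read 78.9, 67.0 and 106. Amn went the other way at 125, 208 and 125, 1.62-fold lower in Flk1+ than in Snail-induced Flk1- cells. The part of these cell types in the differences of Phc1, Cbx6 or Pcgf5 was not tested. Cell cycle genes, with which Ezh2 is known to vary, differed little: 0 of 15 measured were past 1.5-fold in any comparison, with medians of 0.01, -0.05 and 0.00.

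Further subunits of the same complexes were read from lists made from textbook knowledge. Of 13 measured PRC1 genes that are not among the 33, 0 were past 2-fold in the first or second comparison, and 3 were past 1.5-fold in the second. Over all measured genes, 24.1% were past 1.5-fold in the second comparison. At 2-fold the shares were 2.95% higher and 2.03% lower in the first, and 4.85% and 4.89% in the second. Yaf2, which replaces Cbx in variant PRC1, read 737, 1132 and 1771, 2.39-fold higher in Flk1+ than in untreated cells, and L3mbtl2, of the Pcgf6 complex, read 546, 462 and 303. E2f6, a DNA-binding subunit of that complex, read 1214, 1525 and 1825. Sfmbt2 read 33.01, 71.2 and 34.6 and was 1.90-fold higher in Snail-induced than in untreated Flk1- cells. Of 4 further PRC2 genes, Phf1, a relative of Mtf2, read 61.6, 101 and 146, and Epop read 208, 312 and 307, while Aebp2 and Eloc were within 1.11-fold in every comparison.

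Of 20 further CoREST, Sin3 and NuRD genes measured, 0 were past 2-fold in the first or second comparison and 1, Mbd2, in the third. The shares of all measured genes past 2-fold are given above for the first and second comparisons. In the third they were 8.10% higher and 6.41% lower. Mbd2, the methyl-DNA reader that takes the place of Mbd3 in a second form of NuRD, read 264, 512 and 941, 1.91-fold and 1.82-fold higher at the 2 steps. Its difference over the whole span exceeded that of Mbd3 by 1.71 on the log2 scale. Gatad2b, which links the Mbd proteins to Chd4, read 271, 368 and 486. Rcor3, a relative of Rcor1, read 220, 314 and 426, while Rcor2, the form known from embryonic stem cells, read 687, 707 and 676. Mta3 read 1209, 1376 and 780, 1.76-fold lower in Flk1+ than in Snail-induced Flk1- cells, and Sap30, a Sin3 subunit, read 2116, 1537 and 1152. Gse1, found with CoREST, read 241, 156 and 135. Of 11 further partners of Snail measured, 0 were past 1.5-fold in the first comparison, against 16.3% of all measured genes. Gsk3b, the kinase that marks Snail for degradation, read 601, 734 and 1318, and Suv39h2, a methyltransferase of heterochromatin, read 481, 447 and 314. Ajuba, an adaptor that links Snail to Prmt5, read 2634, 2175 and 1805, and its relative Wtip went the other way at 872, 1115 and 1373.

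**Figure D4:**
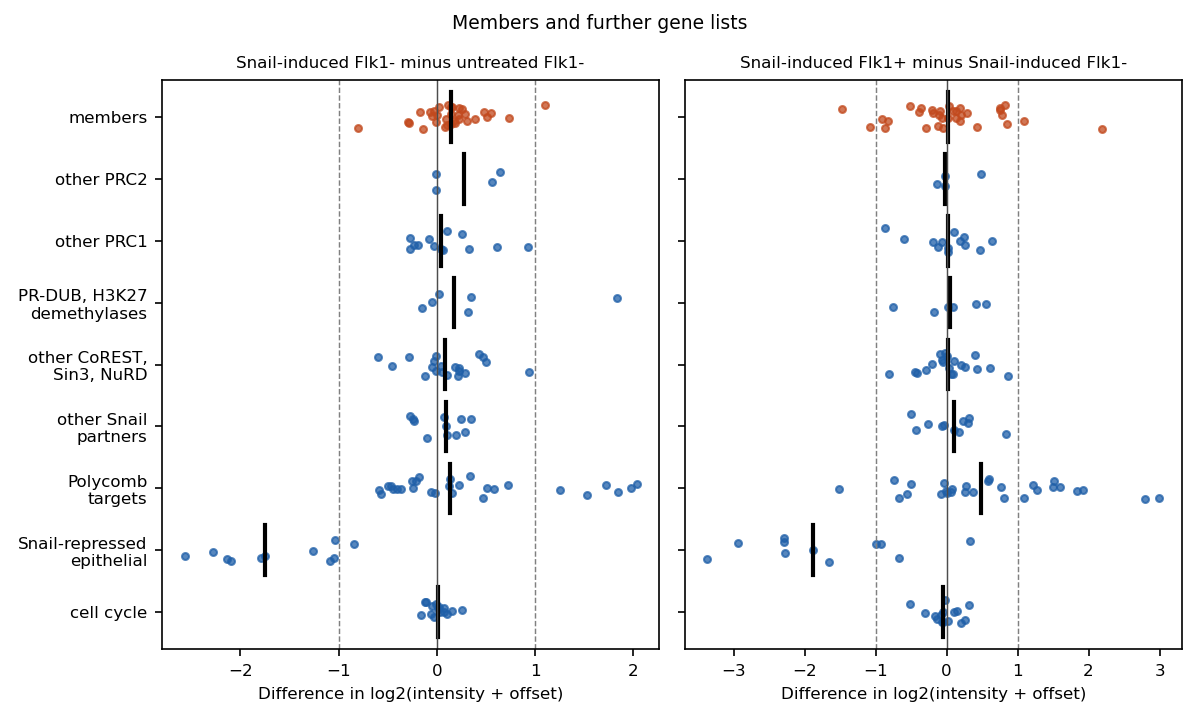
Log2 differences of the 33 genes (orange) and of 8 further gene lists (blue), 1 point per measured gene, with the list median as a black bar and 2-fold as dashed lines; the x axes of the panels differ. The medians of the 33 genes, the further subunit and partner lists and the cell cycle list lie between -0.05 and 0.28. Snail-repressed epithelial genes lie to the left in both panels, apart from Cldn3 in the second, and Polycomb target genes spread to the right.

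Genes that Snail is known to repress were lower after induction. Of 11 such epithelial genes measured, 10 were past 2-fold lower in Snail-induced against untreated Flk1- cells and 0 past it in the other direction. Over all measured genes, 2.03% were past 2-fold lower and 2.95% higher. The median of the 11 was -1.74 on the log2 scale. Cldn6, a tight junction protein, read 1151, 230 and 13.6, and Cldn7 read 950, 152 and 42.02. Esrp1, a regulator of epithelial splicing, read 1215, 356 and 38.3, and the keratin gene Krt18 read 3152, 904 and 238. Cdh1, which encodes E-cadherin, read 6338, 3086 and 624. Cldn3 read 327, 131 and 168, the 1 gene of the 11 that was higher in Flk1+ than in Snail-induced Flk1- cells.

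For 36 developmental regulators that carry Polycomb marks in embryonic stem cells, 34 had a probe set and 28 were measured, 6 of them on 1 array only and 5 on 2. Such a target passed by being high in some groups, so the counts are a description. On the offset scale, 10 of the 28 were past 2-fold higher in Flk1+ cells in the second comparison and 1 past 2-fold lower. Over all measured genes the shares were 4.85% higher and 4.89% lower. Among the 10, Nkx2-2 and Tbx3 reached the limit on the Flk1+ array alone. Against the limit their folds are bounded from below by 1.48 and 1.39, so 2-fold is not shown for them. The median log2 difference of the 28 was 0.48. Foxc1, a regulator of mesoderm, read 15.9, 90.2 and 681, and Isl1, a factor of cardiac progenitors, read 41.2, 198 and 621. Irx3 read 41.8, 159 and 629, and Gata3 read 1.31, 16.3 and 197, at least 7.70-fold higher in Flk1+ cells. Isl1 and Irx3 were higher at each step, as was Foxc1, whose untreated value lay under the limit. Gata3 lay under the limit on both Flk1- arrays, so its first step was not measured. Sox1, of the neural plate, went the other way at 610, 403 and 135, and Pax6 read 327, 324 and 200. Cdkn2a and Cdkn2b, the cell cycle inhibitors that Bmi1 is known to silence, are named for that role and not for their size of difference; they were dim at 11.2, 21.4 and 43.0, and 22.1, 25.7 and 75.9, highest in Flk1+ cells, as was Bmi1. Pax7, Dlx1, Msx2, Tbx5, Olig2 and Evx1 were under the limit on all 3 arrays.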

How the data were processed

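The deposited data are linear intensity values, 1 for each of 45037 probe sets on each of 3 Affymetrix arrays. Per the labels' protocols, biotinylated cRNA was made from 2 ug of total RNA by the standard Affymetrix procedure; for the summary of probe sets and the scaling of arrays, the method was not given in the sources read. Probe sets were named through the platform annotation and their symbols brought up to date through Entrez IDs in RefSeq (GRCm38.p6); 34945 had 1 symbol, 932 several and 9160 none, and only the first kind was used. The probe set with the highest mean log2 value stood for its gene. Where the dimmer value lay under the limit, the brighter value divided by the limit is given as "at least" that fold. With 1 array per group nothing was tested, and the number of arrays limits the precision. All members are accounted for; of each further list up to 4 genes with the largest difference and up to 2 that went the other way are named, apart from Cdh1, Rcor2, Cdkn2a and Cdkn2b, which were added for their role after their values were seen. Targets under the limit are listed by name. The members and lists were chosen with earlier results of these data known. RefSeq promoter windows were read as given. Protein sequences were not used here. Calculations used python 3.11.15 and pandas 2.3.3, and the difference step was tested on simulated data.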

Additional observations from a re-analysis of the deposited data

How the results depend on the processing

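Alternatives were quantile normalisation, centring each array on the median of its measured genes, and the mean of all probe sets. Further ones were leaving out probe sets with a suffix for several transcripts, and the second brightest probe set. The rest were no offset, dropping the floor or raising it to the 60th percentile, the mean over members and a 1.5-fold threshold. The medians of the 33 genes moved by less than the typical gap between probe sets of one gene (0.19, 0.23 and 0.25 on the log2 scale for the 3 comparisons) under every one of them. In the first comparison the single gene past 2-fold was Cbx8. With centring its log2 difference was 0.999, just short of 2-fold, and 0 genes passed; with the mean of probe sets and with the higher floor it had no value and 0 passed. With the second brightest probe set it had no value either, and Pcgf3 passed at 1.10. At 1.5-fold 3 genes passed. In the second, 12 genes passed at 1.5-fold in place of 4 at 2-fold, and between 3 and 6 passed 2-fold under the other alternatives; Ezh1 turned to -0.37 without suffixed probe sets, because only its dim probe set was left, and fell under 2-fold with the mean of probe sets. In the third, 12 passed at 1.5-fold in place of 7, and 4 passed 2-fold with the second brightest probe set, which 22 genes have. Both Ezh1 and Rcor1 fell under 2-fold there and with the mean of probe sets. Ezh1 also fell under it with quantile normalisation and without suffixed probe sets, where Rbbp4 passed. Some values for single genes could not move. A change of floor only decides which genes are kept, and the mean of probe sets changes nothing for a gene with 1. The counts that follow include such values, so they overstate how stable the genes are. Of the values for single genes under these alternatives, 700 moved by less than that gap, 26 of them across 0, and 49 by more, 12 of them across 0. These 12 were values of Ezh1, Phf19, Pcgf2, Rcor1, Pcgf3, Cbx7, Hdac2 and Eed with the mean of probe sets or the second brightest one; Cbx7 turned from -0.52 to 0.28 in the second comparison. No paired analysis was possible because each group is 1 array.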

Other observations

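Enzymes that oppose Polycomb marks were not part of the members. Of 6 such genes, all measured, Asxl3, a partner of the Bap1 deubiquitinase that removes the PRC1 mark, read 49.3, 200 and 271 in untreated Flk1-, Snail-induced Flk1- and Snail-induced Flk1+ cells, 3.56-fold higher in Snail-induced than in untreated Flk1- cells. Its paralog Asxl2 read 720, 649 and 382, lowest in Flk1+ cells, and Asxl1 read 1865, 1896 and 1678. Bap1 itself was level at 1557, 1503 and 1521. The H3K27 demethylase genes were higher in Flk1+ than in untreated Flk1- cells, Kdm6a at 451, 566 and 835 and Kdm6b at 2152, 2750 and 2918, by 1.83-fold and 1.35-fold.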
